A study of Macaca mulatta with 30 samples.

Results

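Adrenergic receptors are the cell surface receptors for adrenaline and noradrenaline. The data on 7 of their genes, ADRA1A, ADRA1B, ADRA1D, ADRA2A, ADRA2B, ADRA2C and ADRB1, were drawn from RNA-sequencing of fetal Rhesus macaque lung and hippocampus after maternal betamethasone. They were found by their Ensembl rhesus symbol in the 30246 gene rows of the lung table and the 32386 rows of the hippocampus table. ADRA1A (ENSMMUG00000023112), ADRA2B (ENSMMUG00000011842) and ADRA2C (ENSMMUG00000014781) had a row in both tables, ADRA2A (ENSMMUG00000041307) and ADRB1 (ENSMMUG00000044756) in the hippocampus table only, and ADRA1B and ADRA1D were not analysed here. All 3 receptors with a lung row and all 5 with a hippocampus row passed the minimum of 7 reads in 3 lung or 5 hippocampus libraries. ADRA2B was chosen for its high early values in these lung libraries, and outside the early groups 2 of its lung libraries reached 7 reads, so its lung values are given as a description, without a test.

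Adrenergic receptors fall into 3 families by the G protein they use. Alpha-1 receptors act through Gq to release calcium and contract smooth muscle, alpha-2 receptors act through Gi to lower cAMP and often sit on sympathetic nerve endings, and beta receptors act through Gs to raise cAMP. In the fetal lung beta receptors are known for driving fluid clearance and surfactant release, and in the brain noradrenaline released from locus coeruleus fibers acts on all of these families.

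Pregnant macaques received 1 intramuscular injection of a betamethasone product or saline, and 30 fetal libraries from wild type animals were sequenced. Whole flash frozen lung was taken in 5 groups of 3 fetuses at a labelled gestational age of 124 to 130 days: saline, the clinical drug (betamethasone phosphate plus acetate, 0.25 mg/kg) after 4 h or 5 days, and Beta-Ac (betamethasone acetate alone, 0.125 mg/kg) after 6 h or 5 days. Hippocampus was taken in 3 groups of 5 fetuses at 130 to 136 days of gestation, 5 days after saline (CTL), Beta-Ac (BAC) or the clinical drug, sold as Celestone (CEL). The doses and the early times differ between the drugs, each drug was compared with the same saline libraries, and 9 fetuses gave both tissues. The hippocampus labels give those 9 fetuses ages of 131 to 136 days, so the labels of the tissues do not match on age. The hippocampus groups follow the sample titles, because the treatment and dose fields name the opposite drug. The lung labels of the shared fetuses match the titles, and going by those fields would exchange BAC and CEL. The labels give no time for the lung saline animals. Animal numbers of the clinical drug 4 h lungs begin with other digits than those of Beta-Ac 6 h and both 5 day groups. Drug or time and animal series cannot be told apart in those comparisons. The saline lungs mixed the digits of the 4 h and the 5 day lungs. Drug and animal series therefore cannot be fully told apart in comparisons with saline either. Replicate 3 of Beta-Ac 6 h was the only lung of its series.

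Reads on genes ranged from 14073002 to 45033799 per lung library and from 18280762 to 29301058 per hippocampus library. Levels are counts scaled to library size (CPM) with TMM factors, which correct for differences in composition between libraries. A gene was called when its change was at least 1.5-fold with p under 0.05 and an adjusted p under 0.1 over all genes tested by edgeR (Storey q in lung, Benjamini-Hochberg in hippocampus). The 7 lung epithelium markers in the table had at least 7 reads in every lung library, and the 8 markers of hippocampal neurons did so in every hippocampus library. In bulk tissue, fewer cells of a type and less RNA per cell cannot be told apart.

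ADRA2B, an alpha-2 receptor that lowers cAMP, was near the limit of detection in control lung and was read in every early drug library. The saline libraries held 0, 0.274 and 0.151 CPM, or 0, 4 and 3 reads. The clinical drug 4 h libraries held 4.98, 4.34 and 1.88 CPM (215, 58 and 30 reads), and the Beta-Ac 6 h libraries 0.405, 2.19 and 6.60 CPM (8, 62 and 137 reads). Every early library was above every saline library, and the 3 Beta-Ac 6 h fetuses were spread far more widely than the 3 clinical drug fetuses. Group means were 0.141 ± 0.137, 3.73 ± 1.64 and 3.07 ± 3.19 CPM (SD, n = 3).

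The log2 fold change of ADRA2B against saline was 4.72 at 4 h of the clinical drug and 4.42 at 6 h of Beta-Ac. These 2 values rest on 7 saline reads in all, and without replicate 3 of Beta-Ac 6 h the second was 3.22. The log2 difference between the early drug groups was 0.29, which moved to 1.499 without the same library, so no order of the drugs was read from ADRA2B.

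By 5 days the ADRA2B values of both drugs overlapped those of saline. The clinical drug 5 day libraries held 0.138, 0.505 and 0.307 CPM (3, 15 and 8 reads), and the Beta-Ac 5 day libraries held 0.117, 0.116 and 0.147 CPM (3, 3 and 4 reads). Replicate 1 of Beta-Ac 6 h, at 0.405 CPM, was below replicate 2 of the clinical drug at 5 days. In order of mean level, the early groups overlapped each other, and the clinical drug at 5 days (0.317 ± 0.184 CPM), saline and Beta-Ac at 5 days (0.127 ± 0.0179 CPM, SD, n = 3) overlapped one another. The log2 fold change of 4 h against 5 days was 3.51 for the clinical drug, and that of 6 h against 5 days was 4.54 for Beta-Ac.

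Against saline, which was part of how ADRA2B was chosen, it had a log2 fold change at 5 days of 1.21 with the clinical drug and of -0.11 with Beta-Ac. These values rest on 26, 10 and 7 reads in the clinical drug, Beta-Ac and saline groups.

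**Figure D1:**
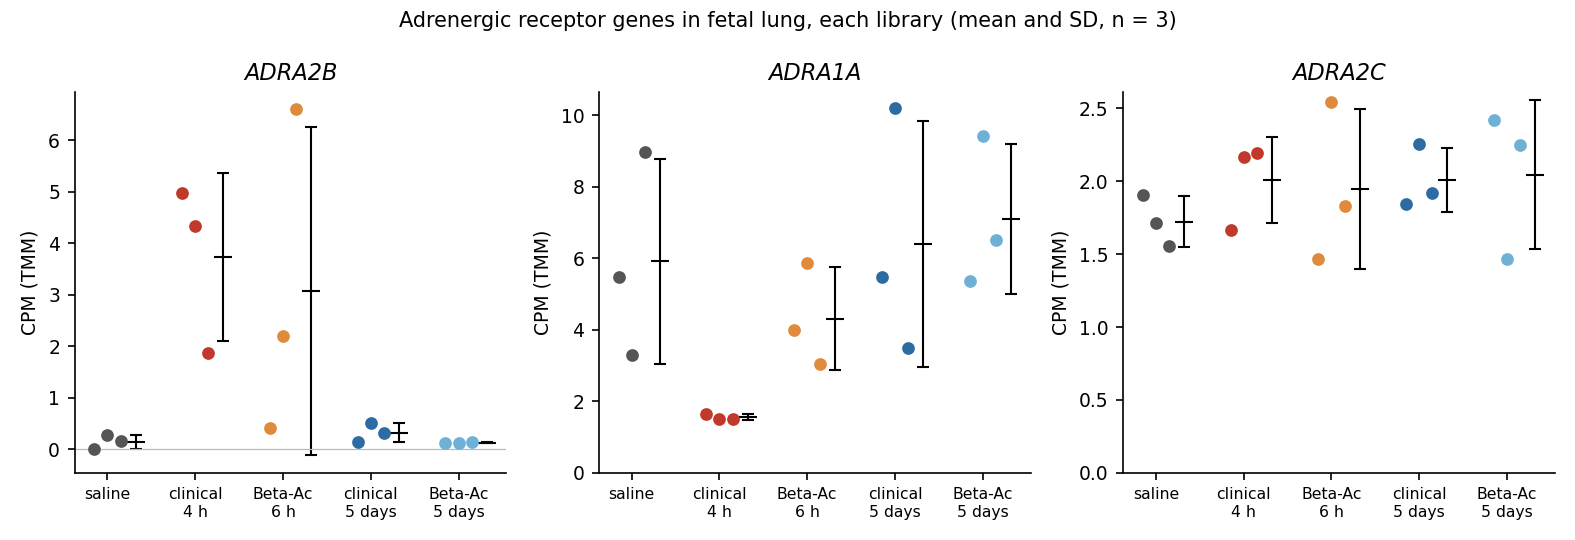
Level of ADRA2B, ADRA1A and ADRA2C in fetal lung, in TMM-scaled CPM on the vertical axis, for the 5 lung groups on the horizontal axis. Points are single fetuses and bars are the mean and SD of 3. ADRA2B stood at 0.405 to 6.60 CPM in the early groups against 0 to 0.274 CPM in saline, ADRA1A was lowest 4 h after the clinical drug at 1.495 to 1.64 CPM, and the groups overlapped for ADRA2C.

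ADRA1A, an alpha-1 receptor that acts through calcium and contracts vascular smooth muscle, fell in lung 4 h after the clinical drug. The saline libraries held 5.47, 3.29 and 8.98 CPM, and the clinical drug 4 h libraries 1.64, 1.495 and 1.502 CPM, from 71, 20 and 24 reads. The groups did not overlap, and the means were 5.91 ± 2.87 and 1.55 ± 0.0840 CPM (SD, n = 3). The change was -1.93 on the log2 scale (SE 0.44, 95% interval -2.87 to -0.99), a 3.81-fold lower level (q = 0.0125, edgeR quasi-likelihood test). It was called under each of 11 alternatives, with log2 values of -2.21 to -1.49 and adjusted p of 0.000413 to 0.0656.

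The Beta-Ac 6 h libraries held 4.00, 5.87 and 3.04 CPM of ADRA1A and overlapped the saline range. Their change against saline was -0.46 (95% interval -1.34 to 0.42) and was not called (q = 0.5263, edgeR). ADRA1A was lower 4 h after the clinical drug than 6 h after Beta-Ac by a log2 difference of -1.47 (SE 0.44, 95% interval -2.41 to -0.53), a 2.77-fold difference (q = 0.0467, edgeR). All 3 clinical drug libraries were below all 3 Beta-Ac libraries. This call was lost without replicate 2 of the clinical drug at 4 h (q = 0.117), without its replicate 3 (q = 0.107) and without replicate 2 of Beta-Ac at 6 h (q = 0.112, log2 difference -1.18).

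At 5 days ADRA1A held 5.48, 10.2 and 3.49 CPM after the clinical drug and 5.35, 9.41 and 6.52 CPM after Beta-Ac. Both groups overlapped the saline values, with log2 fold changes of 0.11 (95% interval -0.76 to 0.98, q = 0.937) and 0.26 (-0.62 to 1.13, q = 0.904, edgeR). Between 4 h and 5 days of the clinical drug the log2 difference was -2.04 (SE 0.44, 95% interval -2.98 to -1.101, q = 0.0067, edgeR), so the 4 h level was 4.11-fold lower, and this was called under each of 11 alternatives. Between 6 h and 5 days of Beta-Ac it was -0.72 (-1.59 to 0.16) and was not called (q = 0.628, edgeR). The 5 day drug groups differed by -0.15 (95% interval -1.01 to 0.72, q = 0.999, edgeR).

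Some markers of cell types that whole lung holds were also called at 4 h. The summed level of the 5 pericyte markers with a row was 1296 to 1345 CPM 4 h after the clinical drug, 1675 to 1824 CPM in saline and 1508 to 1833 CPM 6 h after Beta-Ac, with RGS5 the 1 called marker and none at 0 reads. The 6 smooth muscle markers summed to 1818 to 2334 CPM at 4 h and 1920 to 2469 CPM in saline, and 0 of 6 were called. Lung epithelium markers summed to 13233 to 19550 CPM at 4 h against 8038 to 11959 CPM in saline, with LAMP3, SFTPC and ABCA3 called higher. Mesothelium markers summed to 72.1 to 98.1 CPM at 4 h and 27.8 to 53.5 CPM in saline, with ITLN1 called higher. Endothelial markers summed to 2569 to 3520 CPM at 4 h and 2799 to 3329 CPM in saline, with KDR called lower. Of the 5 endothelial markers tested, 4 had an unadjusted p under 0.05 (edgeR). Their median log2 fold change was -0.35, beside 0.02 over all genes. The 4 platelet and megakaryocyte markers with a row summed to 2.62 to 3.43 CPM at 4 h against 4.76 to 8.56 CPM in saline and 4.63 to 5.56 CPM at 6 h, with TREML1 and ITGA2B called lower than in saline. Between the early drugs HBA1 (-2.92) and SLC4A1 (-2.93) of red blood cells, KDR (-0.86) and RGS5 (-0.97) were called lower at 4 h. The mesothelium genes MSLN (1.24) and ITLN1 (1.18) were called higher. Red blood cell markers summed to 25.2 to 43.2 CPM (median 41.9) at 4 h and 37.7 to 204.8 CPM (median 44.2) at 6 h, so 1 Beta-Ac library set the upper end. Between 4 h and 5 days of the clinical drug, KDR (-1.23) and RGS5 (-1.11) were called lower at 4 h. LAMP3 (1.19), SFTPC (0.90), VWF (1.13) and ITLN1 (1.11) were called higher. The part of these shifts in the ADRA1A results was not tested.

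ADRA2C, an alpha-2 receptor known as a brake on noradrenaline release, was not called in any lung comparison. Its 15 libraries ranged from 1.47 to 2.55 CPM and its group means from 1.72 ± 0.174 in saline to 2.05 ± 0.509 CPM 5 days after Beta-Ac (SD, n = 3). The log2 fold change against saline was 0.21 at 4 h (95% interval -0.41 to 0.83, q = 0.528), 0.18 at 6 h (-0.43 to 0.80, q = 0.639), and at 5 days 0.22 (-0.39 to 0.84, q = 0.932) after the clinical drug and 0.25 (-0.36 to 0.86, q = 0.880) after Beta-Ac, all by edgeR. None was called, and the intervals reached past the called fold upward but not downward.

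Counted over the tested receptors, with ADRA2B left out of every lung comparison, edgeR called 1 of 2 receptors at 4 h of the clinical drug against saline, where 7.4% of all 17644 genes were called (3.46% higher and 3.94% lower). It called 0 of 2 at 6 h of Beta-Ac, against 0.442% of all genes. At 5 days it called 0 of 2 after the clinical drug (0% of all genes), 0 of 2 after Beta-Ac (0.00567%) and 0 of 2 between the drugs (0%). It called 1 of 2 between the early drug groups (6.74% of all genes, 2.62% higher and 4.11% lower after the clinical drug), 1 of 2 between 4 h and 5 days of the clinical drug (10.4%, 4.47% higher and 5.92% lower at 4 h), and 0 of 2 between 6 h and 5 days of Beta-Ac (0.261%). The 1 receptor called was ADRA1A each time, and these comparisons share libraries. In the 5 comparisons with 0 receptors called by edgeR, 0 had an unadjusted p under 0.05 and DESeq2 called 0 as well.

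**Figure D2:**
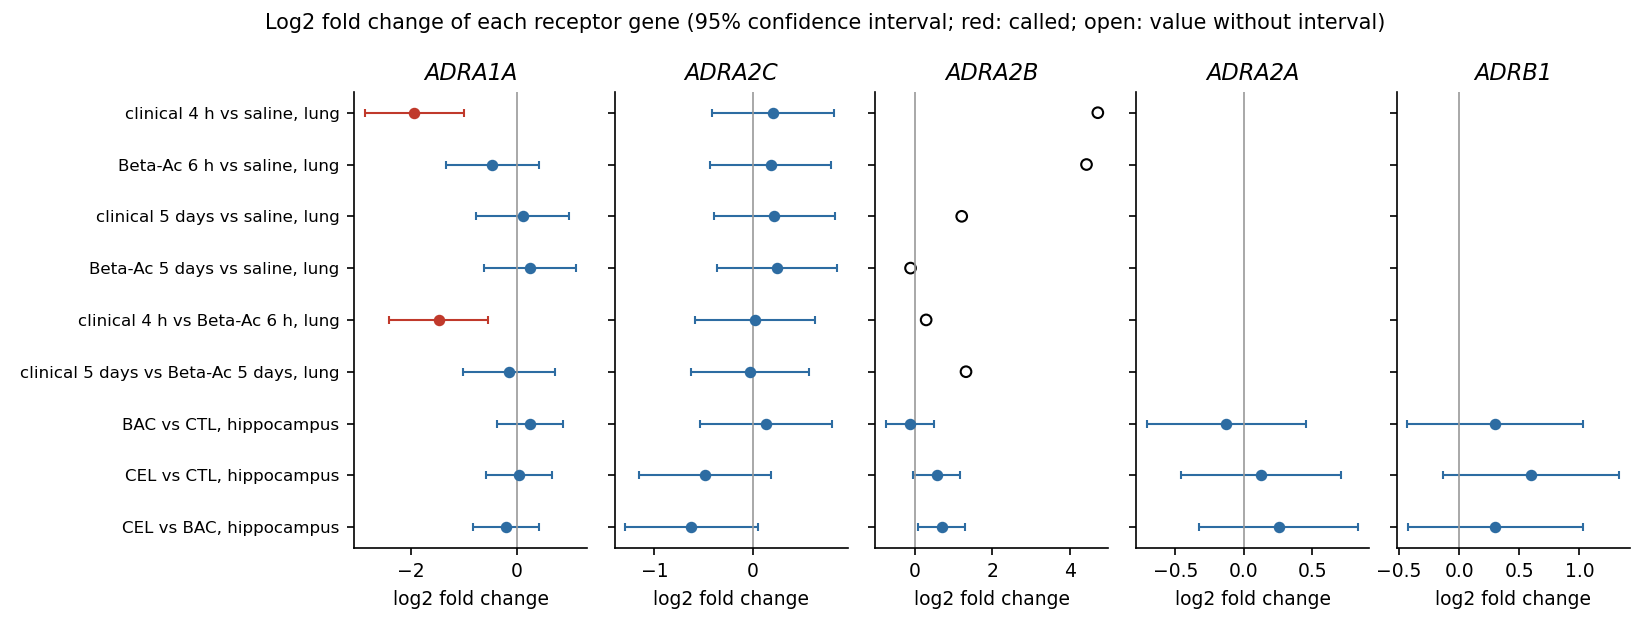
Log2 fold changes of the 5 receptors on the horizontal axis for the comparisons against saline and between the drugs at a like time, with 95% intervals from edgeR. Red points were called and open points are the lung values of ADRA2B, drawn without an interval because the gene was chosen on lung libraries. ADRA1A was called in lung 4 h after the clinical drug, at -1.93 against saline and -1.47 against Beta-Ac at 6 h.

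The genes around the receptors were counted from lists of 80 genes of catecholamine metabolism and receptor signaling, of which 62 were tested in lung. At 4 h of the clinical drug 6 of 62 (9.68%) were called, 4 higher and 2 lower, with a median log2 fold change of -0.09 over the lists and 0.02 over all genes. Over all genes 7.4% were called, so the share in the lists was near the background. In the catecholamine list 2 of 9 rose and none fell. MAOA, which breaks down noradrenaline and serotonin, rose by 1.63 (SE 0.18, q = 8.94e-05, edgeR), and GCH1, which makes the cofactor of tyrosine hydroxylase, by 1.23 (SE 0.27, q = 0.0111, edgeR). TH and DBH, the synthetic enzymes of noradrenaline, were not called.

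MAOA was read at 82.9, 59.5 and 89.5 CPM in saline, 262, 222 and 235.4 CPM 4 h after the clinical drug and 149.9, 159 and 237.97 CPM 6 h after Beta-Ac. All 6 early libraries were above all saline libraries. At 5 days MAOA lay between 67.7 and 84.7 CPM in both drug groups, inside the saline range.

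Among the receptor kinases, arrestins and RGS proteins, which silence active receptors or their G proteins, 1 of 9 rose and 1 fell. GRK3, a kinase that marks active receptors for arrestin binding, rose by 0.85 (SE 0.23, q = 0.0330, edgeR). RGS5, a pericyte gene that shortens Gq and Gi signals, was at 262, 261 and 261 CPM 4 h after the clinical drug against 478, 597 and 621 CPM in saline, and its log2 fold change was -1.11 (SE 0.27, q = 0.0169, edgeR). Of 9 cAMP phosphodiesterases, PDE7A rose by 0.68 (q = 0.0545, edgeR) and PDE7B fell by 0.71 (q = 0.0408, edgeR). None of the 7 G protein subunits, 7 adenylyl cyclases, 6 phospholipase C and inositol trisphosphate receptor genes, 5 protein kinase A subunits or 10 cAMP response genes was called.

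The calls of MAOA, GCH1 and RGS5 at 4 h held in all 11 alternatives. GRK3 was lost without clinical drug replicate 1 or saline replicate 1 or 2, PDE7A without clinical drug replicate 1 or 2 or saline replicate 1 or 3, and PDE7B without clinical drug replicate 2 or saline replicate 3 (q = 0.102 to 0.169, edgeR). Fitting only the groups compared lost GRK3 and PDE7B as well.

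**Figure D3:**
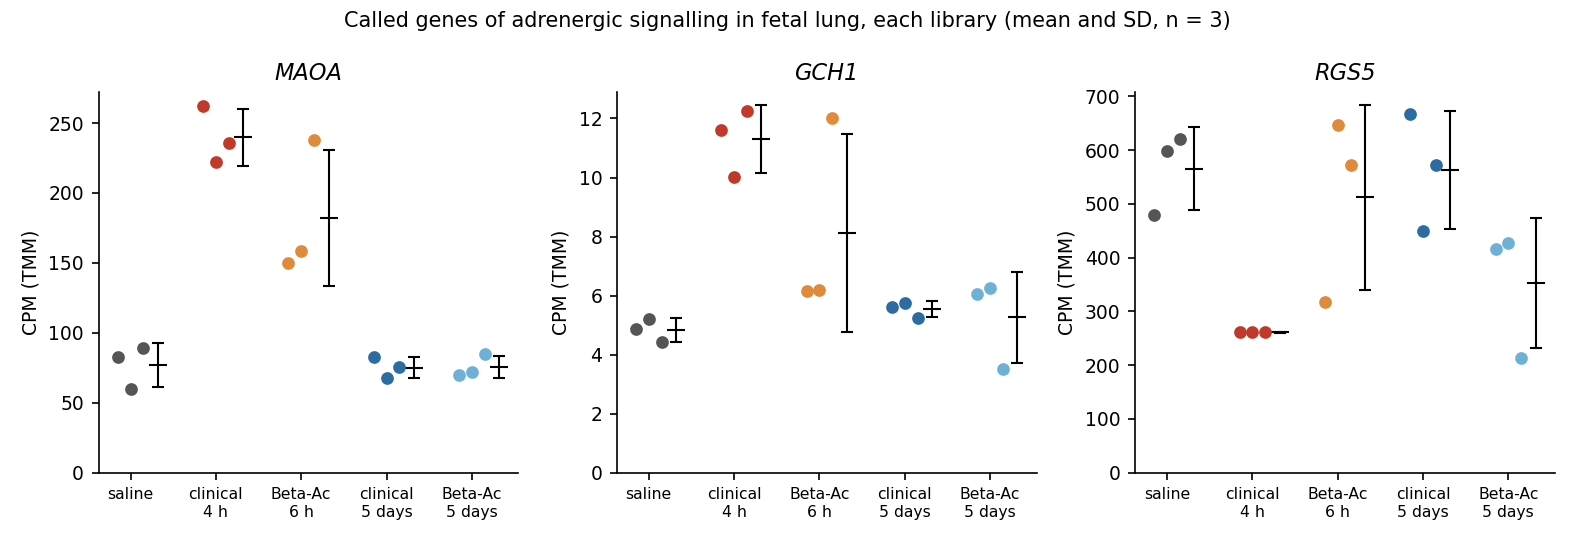
Level of MAOA, GCH1 and RGS5 in fetal lung, in TMM-scaled CPM on the vertical axis, for the 5 lung groups on the horizontal axis. Points are single fetuses and bars are the mean and SD of 3. MAOA was 222 to 262 CPM 4 h after the clinical drug against 59.5 to 89.5 CPM in saline, and RGS5 was 261 to 262 CPM against 478 to 621 CPM.

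At 6 h of Beta-Ac, 1 of 62 genes (1.61%, beside 0.442% of all genes) was called, MAOA, with a log2 fold change of 1.24 (SE 0.18, q = 0.0119, edgeR). Fitting only the 2 groups compared lost this call (q = 0.163, edgeR). GCH1 was at 6.17, 6.19 and 12.0 CPM 6 h after Beta-Ac, against 11.6, 10.02 and 12.3 CPM 4 h after the clinical drug and 4.42 to 5.20 CPM in saline.

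Between the early drug groups 3 of 62 genes (4.84%, beside 6.74% of all genes) were called by edgeR. RGS5 was lower 4 h after the clinical drug by a log2 difference of -0.97 (q = 0.0363, edgeR), PRKACB, a catalytic subunit of protein kinase A, was lower by -0.59 (q = 0.0239, edgeR), and GNAI1, a Gi subunit, was higher by 0.60 (q = 0.0418, edgeR). The PRKACB and GNAI1 values sat just past the called fold. PRKACB was lost in 6 of 11 alternatives, among them those without clinical drug replicate 2 or 3 or Beta-Ac replicate 1. GNAI1 was lost without clinical drug replicate 1 or 3 or Beta-Ac replicate 2 or 3. Fitting only the groups compared lost all 3, RGS5 at q = 0.103 (edgeR).

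By 5 days 0 of 62 genes were called by edgeR against saline after the clinical drug (0% of all genes) or Beta-Ac (0.00567%). Between the drugs at 5 days 0 of 62 were called as well (0% of all genes). Between 4 h and 5 days of the clinical drug 10 of 62 (16.1%) were called, 4 higher and 6 lower at 4 h, beside 10.4% of all genes. MAOA (1.67), GCH1 (1.03), GRK3 (0.73) and PDE8A (0.62) were higher. Among the lower genes were RGS5 (-1.11), PRKACB (-0.72), PDE7B (-0.68) and the cAMP-induced orphan receptors NR4A1 (-1.73, q = 0.0691), NR4A2 (-1.65, q = 0.0102) and NR4A3 (-1.55, q = 0.0886, edgeR). NR4A1 was lost in 4 of 11 alternatives, among them those without 4 h replicate 1 or 2 or 5 day replicate 1. NR4A3 was lost in 7 of 11, among them those without 4 h replicate 1 or 2 or 5 day replicate 1 or 3. GRK3 was lost without 4 h replicate 1 or 2 or 5 day replicate 1, PDE7B without 4 h replicate 2 or 5 day replicate 1 or 2, and PDE8A without 4 h replicate 3 or 5 day replicate 1. Between 6 h and 5 days of Beta-Ac, MAOA was the 1 gene of 62 called (1.61%, beside 0.261% of all genes), at 1.27 (q = 0.0132, edgeR). That call was lost in 2 of 11 alternatives, 1 of them without 5 day replicate 1 (q = 0.115, edgeR). The highest adjusted p over the alternatives was 0.161 (edgeR or DESeq2).

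Genes whose levels followed ADRA2B over the 15 lung libraries were ranked by Pearson's r of log2 CPM, as a description over libraries that share groups. They were PLEKHA7 (0.931), ADAMTS1 (0.925), FKBP5 (0.911), NUP205 (0.897) and NNMT (0.895). FKBP5, a chaperone partner of the glucocorticoid receptor, had group means of 5.61 ± 0.296 CPM in saline, 173 ± 49.6 CPM at 4 h and 52.0 ± 47.1 CPM at 6 h (SD, n = 3). ADAMTS1, a secreted protease, had means of 119.6 ± 17.1, 375 ± 59.1 and 331 ± 149.9 CPM in the same order. In both genes, as in ADRA2B, the SD of each early drug group was larger than that of saline. Both were picked for following ADRA2B in these same libraries, so a shared pattern is built in. MAOA had an r of 0.875 with ADRA2B.

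The genes most like ADRA1A were PGM5 (0.916), HTR1B (0.893), MAP2K6 (0.881), ZNF462 (0.877) and FEZ1 (0.875). PGM5, a protein of muscle and adhesion junctions, was at 58.0 ± 11.9 CPM in saline, 32.2 ± 3.84 CPM at 4 h and 56.9 ± 3.19 CPM at 6 h (SD, n = 3). HTR1B, a serotonin receptor that couples to Gi, was at 1.24 ± 0.498, 0.312 ± 0.0126 and 0.761 ± 0.258 CPM (SD, n = 3). In each of them the 4 h group had the lowest mean of the 3, which follows from picking genes that track ADRA1A. ADRA1A and ADRA2B had an r of -0.682 with each other.

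In hippocampus, 5 receptors were read in all 15 libraries, and none was called in any comparison of groups. ADRA2B was at 1.101, 1.205, 0.962, 1.31 and 1.48 CPM in CTL, 1.15, 0.535, 1.48, 1.08 and 1.29 CPM in BAC and 1.18, 1.29, 2.19, 1.57 and 2.73 CPM in CEL. The CEL group reached the highest values but overlapped both others, with means of 1.21 ± 0.197, 1.11 ± 0.354 and 1.79 ± 0.656 CPM (SD, n = 5). The log2 fold change was 0.56 for CEL against CTL (95% interval -0.05 to 1.17, adjusted p = 0.198, edgeR) and 0.69 for CEL against BAC (0.08 to 1.30, adjusted p = 0.318, edgeR). For BAC against CTL it was -0.13 (-0.75 to 0.49, adjusted p = 0.894, edgeR).

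ADRA2C was the receptor with the lowest CEL mean relative to the others, at 6.94 ± 2.28 CPM against 9.73 ± 4.34 CPM in CTL and 10.7 ± 2.76 CPM in BAC (SD, n = 5). The CTL libraries held 9.06, 5.32, 5.85, 14.7 and 13.8 CPM and the CEL libraries 3.39, 6.07, 7.61, 8.70 and 8.93 CPM. The groups overlapped, and the log2 fold change of CEL was -0.49 against CTL (95% interval -1.16 to 0.19, adjusted p = 0.317, edgeR) and -0.62 against BAC (-1.30 to 0.05, adjusted p = 0.401, edgeR). For BAC against CTL it was 0.14 (-0.53 to 0.80, adjusted p = 0.896, edgeR).

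ADRB1, the beta-1 receptor, was at 3.50 ± 0.761 CPM in CTL, 4.31 ± 2.16 CPM in BAC and 5.31 ± 2.55 CPM in CEL (SD, n = 5). Its log2 fold change was 0.60 for CEL against CTL (95% interval -0.14 to 1.33, adjusted p = 0.256, edgeR), 0.30 for BAC (-0.43 to 1.03, adjusted p = 0.767, edgeR) and 0.30 for CEL against BAC (adjusted p = 0.736, edgeR). In both drug groups replicates 4 and 5, which shared a sequencing run, held the highest values.

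ADRA2A, an alpha-2 receptor that inhibits noradrenaline release, was at 7.90 ± 1.99 CPM in CTL, 7.24 ± 2.38 CPM in BAC and 8.65 ± 3.33 CPM in CEL (SD, n = 5). ADRA1A was at 7.97 ± 1.201, 9.48 ± 4.59 and 8.23 ± 1.93 CPM (SD, n = 5), with BAC reaching from 3.67 to 14.5 CPM. For BAC and CEL against CTL the log2 fold changes were -0.13 (95% interval -0.71 to 0.46) and 0.13 (-0.46 to 0.71) for ADRA2A, and 0.25 (-0.37 to 0.87) and 0.05 (-0.58 to 0.67) for ADRA1A. Their adjusted p was 0.890, 0.785, 0.773 and 0.931 in that order (edgeR). For CEL against BAC the log2 fold change was 0.25 for ADRA2A (adjusted p = 0.720) and -0.20 for ADRA1A (adjusted p = 0.802, edgeR).

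By edgeR, 0 of 5 receptors were called for BAC against CTL (0% of 17390 genes), for CEL against CTL (7.86%, with 2.5% higher and 5.35% lower) and for CEL against BAC (0%). DESeq2 called 0 of 5 receptors in each, and 149, 1405 and 186 of all genes in the same order. An unadjusted p under 0.05 was reached by 0, 0 and 1 of 5 receptors with either tool, the 1 being ADRA2B between CEL and BAC.

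Control 5 stood apart from the other hippocampus libraries. Its choroid plexus markers, 4 of 6 listed being in the table, summed to 1083 CPM against 7.8 to 29.2 CPM in the other 14 libraries. CLIC6, FOLR1 and OTX2 of that list were called lower in CEL than in CTL. The sum of the list was 7.8 to 12.7 CPM in controls 1 to 4 and 13.6 to 21.1 CPM in CEL. Thalamus markers summed to 66 CPM in control 5 and 119 CPM in BAC replicate 4, against 22.8 to 36.9 CPM elsewhere. Without control 5 the log2 fold change of CEL against CTL was 0.64 for ADRA2B (adjusted p = 0.178), -0.33 for ADRA2C (0.531) and 0.55 for ADRB1 (0.347, edgeR), and 0 of 5 receptors were called. Without BAC replicate 4, 0 of 5 were called as well, and ADRB1 in BAC against CTL was -0.02.

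**Figure D4:**
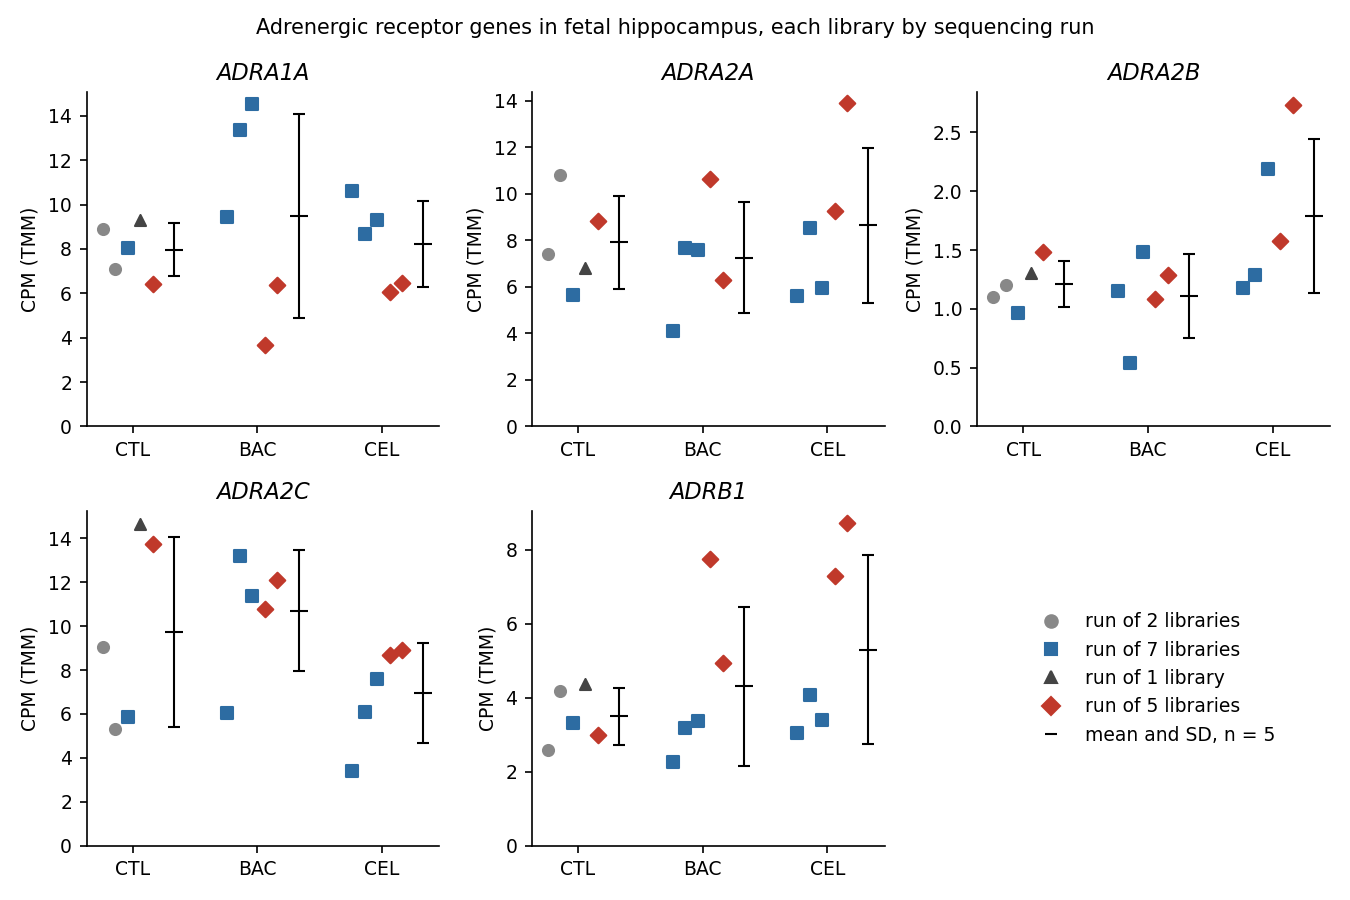
Level of the 5 receptors in fetal hippocampus, in TMM-scaled CPM on the vertical axis, for CTL, BAC and CEL on the horizontal axis. Points are single fetuses, symbols mark the sequencing run, and bars are the mean and SD of 5. The groups overlapped for every receptor, while ADRA1A was 3.67 to 6.45 CPM in the run of 5 libraries and 8.06 to 14.5 CPM in the run of 7.

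The hippocampus labels name 4 sequencing runs, and 2 of them held all 3 groups. One had 7 libraries (control 3, BAC 1 to 3 and CEL 1 to 3) and one had 5 (control 5, BAC 4 and 5, and CEL 4 and 5). The other runs held controls 1 and 2, and control 4. The log2 differences between the runs of 5 and 7, estimated by edgeR with group as a term, were chosen after seeing the values and are given as a description, without a test. Run and animal series cannot be told apart.

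ADRA1A was at 3.67 to 6.45 CPM in the run of 5 (mean 5.80 ± 1.202, SD, n = 5) and at 8.06 to 14.5 CPM in the run of 7 (10.6 ± 2.46, SD, n = 7). The runs did not overlap. The log2 difference was -0.85 (SE 0.20).

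ADRB1 differed the other way, at 6.35 ± 2.33 CPM (SD, n = 5) in the run of 5 and 3.24 ± 0.533 CPM (SD, n = 7) in the run of 7, by 0.94 on the log2 scale (SE 0.22). Control 5 was the exception in its run, at 2.999 CPM, whereas the 4 drug-exposed fetuses ranged from 4.95 to 8.72 CPM.

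The log2 difference was 0.60 (SE 0.21) for ADRA2A, 0.53 (SE 0.24) for ADRA2C and 0.36 (SE 0.28) for ADRA2B. With run as a block in the comparison of groups, 0 of 5 receptors were called for either drug.

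Of the 80 listed genes 68 were tested in hippocampus. None was called by edgeR for BAC against CTL or for CEL against BAC, beside 0% of all genes in each. In CEL against CTL 6 of 68 (8.82%) were called, all lower, beside 7.86% of all genes (5.35% lower), with a median log2 fold change of -0.13 over the lists and -0.02 over all genes. They were the receptor kinases GRK3 (-1.098, adjusted p = 0.0246), GRK6 (-0.72, 0.0171) and GRK5 (-0.63, 0.0188), the regulatory subunits of protein kinase A PRKAR2A (-0.86, 0.0210) and PRKAR2B (-0.62, 0.0171), and MAOA (-0.78, 0.0503, edgeR). MAOA was at 51.7, 35.0, 45.9, 84.3 and 25.3 CPM in CTL and 24.9, 26.4, 30.6, 28.98 and 29.7 CPM in CEL, so that control 5 lay inside the CEL range.

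All 6 calls were lost with sequencing run as a block (adjusted p = 0.119 to 0.408, edgeR) and within the 2 runs that held all groups (0.145 to 0.429). Over all genes edgeR still called 958 and 572 in these fits, against 1366 in the main fit. All 6 calls held without control 5. The cell type markers NEUROD1 (1.18, adjusted p = 0.0242), VWF (-0.86, 0.0990) and CALB2 (-1.48, 0.0175, edgeR) were called in the same comparison, with summed levels of 2732 to 3087 CPM in CEL and 2175 to 3323 CPM in CTL for the list of hippocampal neurons, and their part in the result was not tested. MAOA was lost without control 4 or CEL 1, GRK5 without control 1 or 4 or CEL 3, and PRKAR2B without control 1, 2 or 4 or CEL 3.

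**Figure D5:**
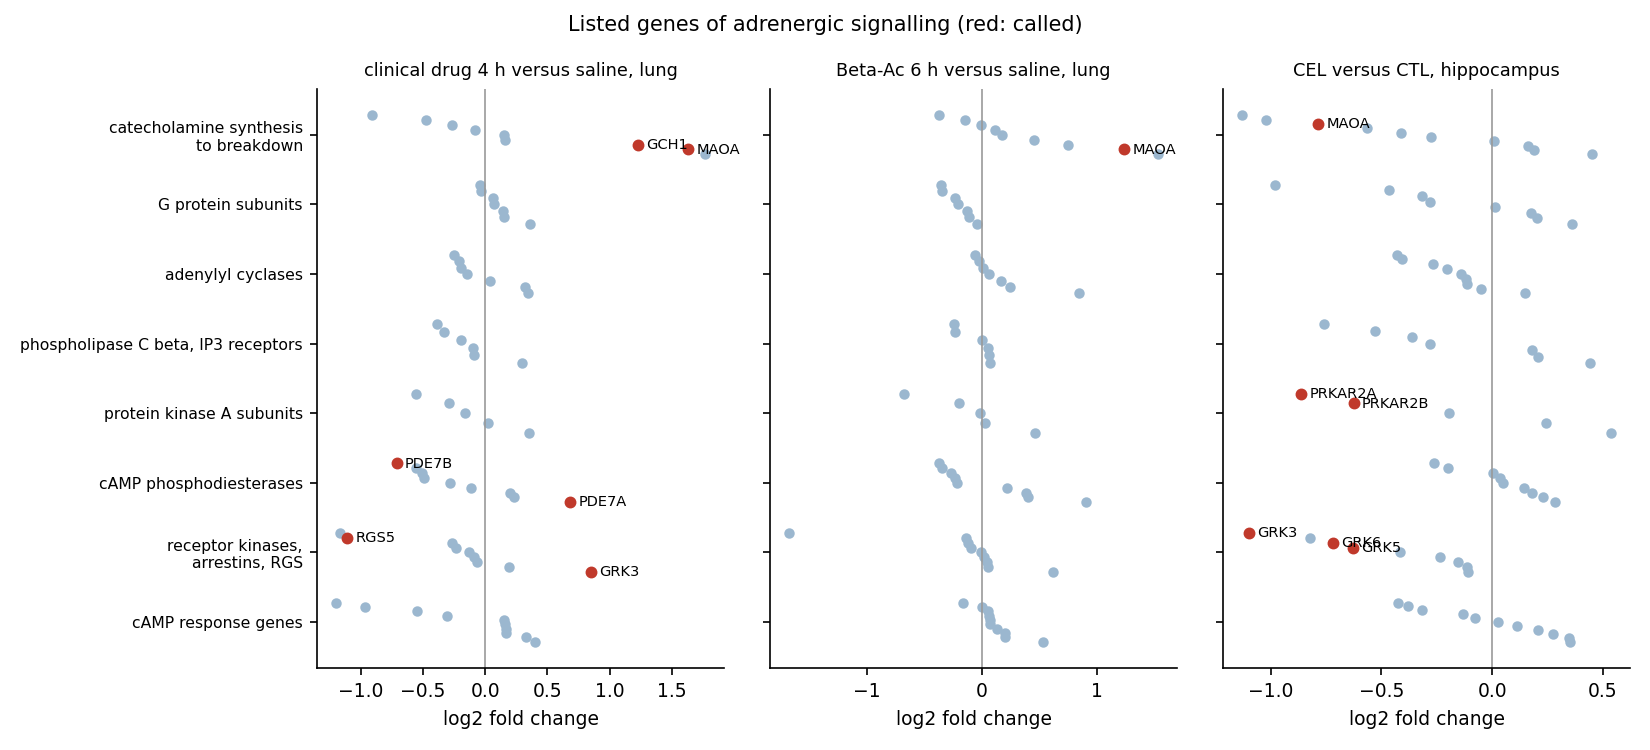
Log2 fold change of each tested gene of the adrenergic signaling lists on the horizontal axis, by list, in lung after 4 h of the clinical drug or 6 h of Beta-Ac and in hippocampus for CEL, each against saline. Called genes are red. Of the tested genes 6 of 62, 1 of 62 and 6 of 68 were called.

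The 9 fetuses with both tissues (3 saline and 3 of each drug at 5 days) allowed each receptor to be compared within an animal. The tables were counted from separately prepared libraries with different gene sets, so tissue and table cannot be told apart. CPM in this comparison were scaled anew over the 20572 gene rows shared by lung and hippocampus, so they differ from the values above. All 9 hippocampus libraries came from the runs of 2 and 7. None came from the run of 5, in which ADRA1A was at 3.67 to 6.45 CPM on the earlier scale. Over 14373 genes 73.2% were called in this comparison, 36.1% higher and 37.1% lower in lung. Of the receptors tested, ADRA1A and ADRA2C, 2 of 2 were called, and with most genes called this says nothing particular to them. ADRA2B ranged from 0 to 0.535 CPM in lung (median 0.155) and from 0.620 to 2.51 CPM in hippocampus (median 1.37). The saline lungs among them were part of how ADRA2B was chosen, and it passed the minimum of reads in 9 libraries through hippocampus, so its log2 difference of lung from hippocampus, -2.82, is a description. The early lungs were not used.

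ADRA2C ranged from 1.52 to 2.50 CPM in lung (median 1.95) and from 3.97 to 15.3 CPM in hippocampus (median 7.06), a log2 difference of -2.02 (SE 0.21, adjusted p = 9.1e-07, edgeR) seen in 9 of 9 animals. ADRA1A ranged from 3.34 to 10.8 CPM in lung (median 5.76) and from 8.07 to 16.9 CPM in hippocampus (median 10.7), and was higher in hippocampus in 7 of 9 animals, by -0.83 (SE 0.18, adjusted p = 0.000653, edgeR). In the other 2 animals ADRA1A was at 9.42 and 10.8 CPM in lung and 9.15 and 10.1 CPM in hippocampus. Of the listed pathway genes, 49 of 63 (77.8%) were called, near the share of all genes.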

How the data were processed

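The authors deposited raw read counts per gene, 1 table for lung and 1 for hippocampus, with no normalization. The submitters' processing notes name Bowtie 1.2.1.1 and featureCounts 1.5.1 for lung and Bowtie2 and featureCounts for hippocampus, and the study's methods name the rhesus build MMUL1.0. Of the rows, 52.1% in lung and 54.4% in hippocampus had a gene symbol, and 17644 and 17390 passed the minimum of 7 reads in 3 or 5 libraries.

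Counts were fitted with edgeR 4.0.16 (TMM, quasi-likelihood test) in R 4.3.3, with all groups of a tissue in 1 fit. The lung used Storey's q, which the study's methods name, and the hippocampus Benjamini-Hochberg. DESeq2 1.42.0, other normalization, no filter, fewer groups, run as a block and leaving out each library were the alternatives. The scripts were tested on simulated data. Log2 fold changes used a prior count of 0.125 and likeness one of 2. Intervals are at the 95% level. No libraries were duplicates, the lowest chi-square per degree of freedom between replicates being 13.7. The labels tie 9 lung libraries to hippocampus libraries of the same animals. The correlation of their deviations was 0.0611 to 0.213 (median 0.123, over 0.1 in 6 of 9). P-values measure the spread between these fetuses only.

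The receptors, the lists and the tests were chosen with earlier results of these data known. The text names all receptors, up to 3 called genes of a list per comparison, the 5 genes most like a called receptor or ADRA2B, and genes behind a count of 5 or fewer. One item of the signaling lists is not reported here.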

Additional observations from a re-analysis of the deposited data

Results flagged for a closer look

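ADRA1A differed between groups of drug-exposed lungs in 2 comparisons. Its log2 difference was -1.47 between 4 h of the clinical drug and 6 h of Beta-Ac, which differ in drug, dose, time and animal series together. It was -2.04 between 4 h and 5 days of the clinical drug, which differ in time and animal series together. Both were tested directly by edgeR, with q = 0.0467 and q = 0.0067, and the clinical drug 4 h libraries were the lowest in each. No library stood far from its group in the 15 receptor and group pairs of 5 hippocampus libraries.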

How the results depend on the processing

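ADRA1A kept its call at 4 h of the clinical drug against saline and against 5 days in each of 11 alternatives. The number of receptors called between the early drug groups was 0 to 1 when 1 library was left out, and no other count of receptors called between groups changed. With animal as a replicate block 2 receptors were called between tissues and without that block 2 also, so the pairing changed no call. Storey's q in place of Benjamini-Hochberg in hippocampus, chosen after seeing the data, left 0 receptors called. In single alternatives 35 log2 fold changes turned sign, and the cause was not tested. Run as a block or the 2 shared runs gave 0.0818 and 0.109 for ADRA2A in BAC against CTL.

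Leaving out 1 library gave these ranges. Against saline they were -0.0750 to 0.35 for ADRA2C at 6 h, -0.41 to 0.55 for ADRA1A at 5 days of the clinical drug, and -0.0288 to 0.69 for ADRA1A and -0.68 to 0.63 for ADRA2B at 5 days of Beta-Ac. Between the early drugs they were -0.14 to 0.27 for ADRA2C and -0.22 to 1.499 for ADRA2B, and between the drugs at 5 days -0.22 to 0.11 for ADRA2C and -0.66 to 0.15 for ADRA1A. For ADRA2C, early against 5 days, they were -0.10 to 0.10 for the clinical drug and -0.32 to 0.10 for Beta-Ac. In BAC against CTL they were -0.0198 to 0.33 for ADRA2C, -0.31 to 0.0232 for ADRA2A, -0.25 to 0.0439 for ADRA2B and -0.0230 to 0.46 for ADRB1. In CEL against CTL they were -0.0609 to 0.14 for ADRA1A and -0.11 to 0.27 for ADRA2A, and in CEL against BAC -0.41 to 0.00382 for ADRA1A.

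Counting noise limits ADRA2B in control and 5 day lung, where libraries held 0 to 15 reads. Groups of 3 limit every lung comparison. Adrenergic receptors without a row in a table were not analysed here.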
